A study of Mus musculus with 36 samples.

Results

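Serum- and glucocorticoid-regulated kinases and genes of sodium transport were followed in mouse embryonic fibroblasts (MEFs), primary cells cultured from embryos. The genes were chosen by name: the kinases Sgk1 and Sgk3, the ubiquitin ligase gene Nedd4l, Ndrg1 and Ndrg2 of the family to which a standard kinase substrate belongs, and the sodium pump gene Atp1b1. The choice was made with earlier results of these data known. The members are 6 of the 55487 genes in the count table, and all 6 passed the filter on low counts. RNA-seq was done after 5 h of treatment with vehicle or 1 µM dexamethasone (Dex), a synthetic ligand of the glucocorticoid receptor (GR). Run 1 held GRwt/wt (unmutated receptor), GRD/D (alanine-to-threonine change in the dimer interface of the DNA-binding domain on both alleles), GRD+L/D+L (that change together with the GRL change on the same protein) and GRko/ko (receptor knockout). Run 2 held GRL/L (isoleucine-to-alanine change in the dimer interface of the ligand-binding domain on both alleles) and GRwt/wt again. Each of the 12 groups had 3 libraries, 36 in all. Per genotype the cultures were 3, each from another mouse, and were treated with vehicle or Dex, so that the vehicle and Dex libraries of a genotype are not from separate mice. Whether GRwt/wt of both runs came from the same cultures is not stated. The embryos came from heterozygous intercrosses. FVB/NJ is the strain on all labels, but the study's methods give another strain for the mice that carried the knockout allele, so that the knockout and a strain background cannot be told apart in GRko/ko.

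Sgk1 is a protein kinase whose gene is a classical target of glucocorticoids and mineralocorticoids, while Sgk3 is a related kinase tethered to endosomes. The kinase is activated by phosphorylation downstream of PI3-kinase, through PDK1 and the mTORC2 complex. In sodium-transporting epithelia of the kidney and colon, SGK1 phosphorylates NEDD4-2, the ubiquitin ligase encoded by Nedd4l, which then binds 14-3-3 proteins and removes fewer epithelial sodium channels from the membrane. NDRG1 is a further SGK1 substrate whose phosphorylation is used as a readout of kinase activity. Atp1b1 encodes the beta1 subunit of the sodium pump, which moves sodium out of the cell in exchange for potassium. RNA-seq reads the level of the transcripts and not the activity of the kinases.

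The activated GR binds a palindrome of paired 6-base elements with a 3-base spacer, so the 250 bases upstream of the annotated starts of the genes were searched on both strands for its core, ACANNNTGT, and for the single element, AGAACA. The RefSeq promoter table (GRCm38.p6) held 6 starts of Sgk1, 3 of Ndrg2 and 1 of Atp1b1, and none of Sgk3, Nedd4l or Ndrg1. The core was present in 5.84% of all 32851 windows of that length and the single element in 16.1%. Among the starts of Sgk1, the second and the fifth along the plus strand held the core and the first, the fourth and the fifth held the single element. The windows of Ndrg2 and Atp1b1 held neither. The fifth start of Sgk1 held the core within the full palindrome, AGAACA and its reverse complement with 3 bases between them. It read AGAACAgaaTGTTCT at chr10:21993701-21993715, at position -189 from that start and 965 bases upstream of the sixth. The single elements at that place overlap the core. The full palindrome was searched for after the core had been found, and it was present in 3 of the 32851 windows (0.00913%), those of Sgk1, Acnat2 and Gm35041. A match to these letters is a description of the sequence and not a site of binding in these cells. Both windows with the core are printed 5′ to 3′ on the plus strand with the core and the single elements in capitals, because Sgk1 is the member that rose with Dex in every genotype with a receptor.
Sgk1 start 2 (chr10:21978422-21978671): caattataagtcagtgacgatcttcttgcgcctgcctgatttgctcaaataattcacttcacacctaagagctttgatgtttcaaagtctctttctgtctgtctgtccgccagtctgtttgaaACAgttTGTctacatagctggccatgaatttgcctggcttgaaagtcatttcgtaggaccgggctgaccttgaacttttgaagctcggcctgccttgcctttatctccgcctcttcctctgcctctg
Sgk1 start 5 (chr10:21993640-21993889): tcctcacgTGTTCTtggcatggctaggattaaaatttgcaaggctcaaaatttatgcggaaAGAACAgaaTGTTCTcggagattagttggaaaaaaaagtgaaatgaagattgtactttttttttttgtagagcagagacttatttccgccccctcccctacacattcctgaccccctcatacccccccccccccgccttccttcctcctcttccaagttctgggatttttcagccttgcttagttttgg

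Totals were 15280166 to 19102035 counts in the 24 libraries of run 1 and 21532686 to 28662608 in the 12 of run 2. Transcripts of Nr3c1, the GR gene, were at 15.9 to 20.4 CPM (the count of a gene scaled to a common library size, with TMM factors) in GRko/ko and at 47.8 CPM or more in every other library, so transcripts of the gene remained in the knockout. The GR targets Tsc22d3 and Fkbp5 rose with Dex in every genotype other than GRko/ko. Dex raised Fkbp5 5.96-fold in GRwt/wt of run 1 and 13.0-fold in that of run 2, and Tsc22d3 3.57-fold and 11.8-fold. Among the vehicle libraries of GRwt/wt in run 1, Fkbp5 was highest in replicate 2, at 67.4 CPM against 47.8 and 47.6 CPM in the other two. Over all genes, the libraries furthest apart within a group were vehicle replicates 2 and 3 of GRD/D, with a mean chi-square per gene of 26.5 after scaling to depth. Dex replicate 4 of GRwt/wt in run 2 was at 16.4 and 19.5 from the others of its group, where the remaining pairs were at 1.58 to 9.79. Without replicate 2 or 3 of GRD/D, the Dex change of Sgk1 there was 0.39 or 0.43 on the log2 scale and passed, and 1 or 2 members passed. Without Dex replicate 4, 5 members passed in GRwt/wt of run 2 and 0 in the difference of GRL/L from it. The summed level of 8 fibroblast markers was 19430 to 32063 CPM. Markers of kidney and colon epithelium, in which this pathway is best known, summed to at most 0.898 CPM, with Umod at 0 throughout. The libraries therefore held high levels of fibroblast markers and almost no transcripts of sodium-transporting epithelium. No cell type was assigned to a library. The summed levels of 8 macrophage markers (29.4 to 2941 CPM) and 8 skeletal muscle markers (17.8 to 805 CPM) differed between groups and runs. They are given beside the results with which they moved.

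Per kilobase of exon, Sgk1 and Atp1b1 were the most abundant of the 6 transcripts. The median level over the 36 libraries was 19.3 CPM per kb for Sgk1 and 17.3 for Atp1b1, 4.46 for Ndrg1 and 3.31 for Nedd4l. The levels of Ndrg2 (2.28 CPM per kb) and Sgk3 (0.531 CPM per kb) were the lowest. The ranges of neighbours in this order overlapped, such as 12.2 to 45.5 CPM per kb for Sgk1 and 6.43 to 24.2 for Atp1b1, except that every library had more Atp1b1 than the 6.21 CPM per kb that Ndrg1 reached. The order was not tested. The lowest single count of a member was 36, for Sgk3, so its fold changes are the least precise together with those of Ndrg2, whose lowest count was 58. Reads in exon stretches shared with a gene on the opposite strand cannot be told apart where the counting does not use strand, which the sources used here do not state. Such stretches were 575 bases of Atp1b1 (with Nme7), 277 bases of Nedd4l and up to 419 bases of Ndrg1.

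Dex raised Sgk1 in every genotype that carried a receptor and lowered Nedd4l in both GRwt/wt sets and in GRL/L. Ndrg2 and Atp1b1 rose in run 2, and no Dex change of Sgk3 passed. A change is said to have passed at a Benjamini-Hochberg adjusted p of at most 0.05 in edgeR's quasi-likelihood test over 15489 genes. In GRwt/wt of run 1, 2 members rose and 1 fell, where 13.9% of all genes passed, 7.74% upward and 6.2% downward. In that of run 2, 4 rose and 1 fell, where 31.6% of all genes passed, 14.9% upward and 16.7% downward. In GRL/L, 3 rose and 1 fell, where 19.1% passed, 8.79% upward and 10.4% downward. In GRD/D, 1 rose and 1 fell, where 11.9% passed, 5.63% upward and 6.24% downward. In GRD+L/D+L only Sgk1 changed, upward, where 5% passed, 3.08% upward and 1.92% downward. In GRko/ko, edgeR passed 0 of the 6 members and 0% of all genes. Of all genes, 859 had an unadjusted p under 0.05 and DESeq2 passed 1, and of the members 1, Sgk3, had an unadjusted p under 0.05 and DESeq2 passed 0. The study also asked for an absolute log2 change of at least 1. That limit was met by Sgk1 in both GRwt/wt sets and GRL/L and by Ndrg2 in GRwt/wt of run 2 and GRL/L, against 2.01% (run 1), 4.49% (run 2) and 2.56% (GRL/L) of all genes. It was met by no member in GRD/D, GRD+L/D+L or GRko/ko, where 0.981%, 0.4% and 0% of all genes met it.

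**Figure D1:**
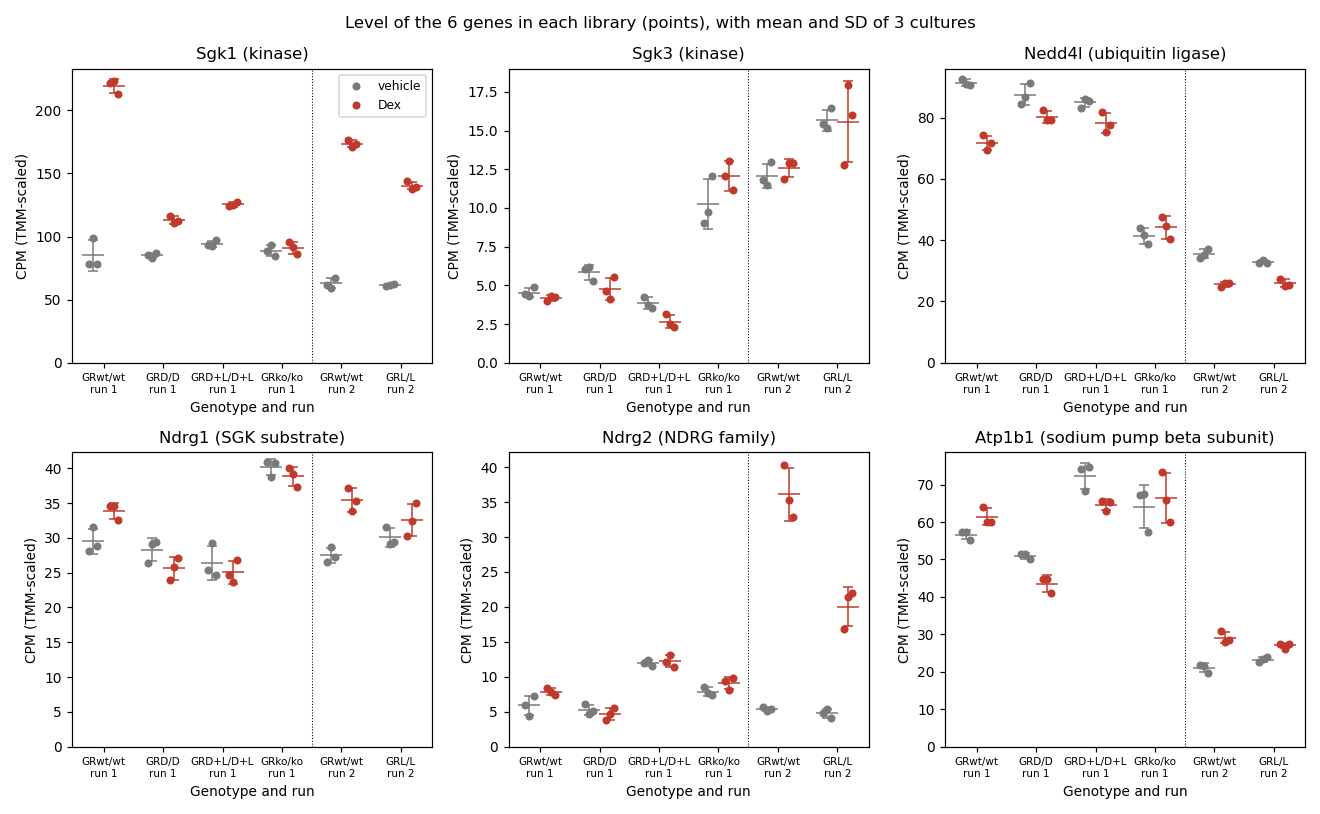
Level of each of the 6 genes in CPM (vertical axis, starting at 0) in every library, by genotype and run (horizontal axis; a dotted line separates the runs), with vehicle in grey, Dex in red, and bars for the mean and SD of 3 cultures. Sgk1 lies at 213 to 223 CPM in the Dex libraries of GRwt/wt in run 1 and at 111 to 127 CPM in those of GRD/D and GRD+L/D+L.

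Sgk1 (ENSMUSG00000019970, chromosome 10, 21882184 to 21999903, plus strand, GRCm38) was the member whose response differed most between the genotypes of run 1. It was at 77.9, 98.9 and 78.4 CPM with vehicle and at 221, 223 and 213 CPM with Dex in GRwt/wt of run 1. The treatments were far apart, and the vehicle library at 98.9 CPM was also the one with the most Fkbp5. The rise was 2.58-fold, a log2 change of 1.37 (SE 0.058, adjusted p = 4.7e-20). In GRD/D the vehicle libraries were at 85.6, 82.9 and 86.9 CPM and the Dex libraries at 117, 111 and 112 CPM. In GRD+L/D+L they were at 92.9, 92.3 and 97.0 CPM and at 124, 125 and 127 CPM. Vehicle and Dex libraries did not overlap in either mutant, and the rise was 1.33-fold in both, with log2 changes of 0.41 (SE 0.059, adjusted p = 2.5e-06) and 0.42 (SE 0.058, adjusted p = 3.1e-06). In GRko/ko the vehicle libraries were at 88.7, 93.5 and 84.3 CPM and the Dex libraries at 95.9, 91.4 and 86.3 CPM, which overlapped, and the log2 change was 0.04 (95% interval -0.08 to 0.16, adjusted p = 0.985).

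The response of Sgk1 in run 2 was of similar size in GRwt/wt. Levels were 61.8, 59.6 and 67.3 CPM with vehicle and 176, 171 and 173 CPM with Dex, a 2.76-fold rise (log2 1.46, SE 0.057, adjusted p = 8.9e-22). In GRL/L they were 60.9, 61.7 and 62.8 CPM with vehicle and 144, 138 and 140 CPM with Dex, a 2.27-fold rise (log2 1.18, SE 0.057, adjusted p = 1.2e-18). The vehicle libraries of both genotypes overlapped, while each Dex library of GRL/L lay below each of GRwt/wt. Between the GRwt/wt sets the log2 change differed by 0.10 (95% interval -0.06 to 0.26, adjusted p = 0.586).

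Each mutant was compared with GRwt/wt of its own run to ask how far each substitution or the lack of the receptor lowered the response. The log2 change of Sgk1 was lower by 0.95 in GRD/D (-0.95, SE 0.082, adjusted p = 1.3e-10), where 3.29% of all genes passed. It was also lower in GRD+L/D+L (-0.95, SE 0.082, adjusted p = 1.2e-10), where 3.23% of all genes passed, and in GRko/ko (-1.33, SE 0.082, adjusted p = 7.7e-15), where 8.48% did. These 3 differences share the GRwt/wt libraries of run 1. The log2 change in GRD/D was 30.2% ± 4.47 (SE) of that in GRwt/wt, in GRD+L/D+L 30.4% ± 4.45 and in GRko/ko 2.73% ± 4.30. In GRL/L it was 80.9% ± 4.97 of that in GRwt/wt of run 2. Its difference of -0.28 (95% interval -0.44 to -0.12) had an adjusted p of 0.0585 and did not pass, in a comparison in which 1.85% of all genes passed. With DESeq2 the same difference had an adjusted p of 0.027, and without the GRwt/wt vehicle library of replicate 6 it was -0.33 with an adjusted p of 0.024. The loss in GRD/D exceeded that in GRL/L by 0.67 on the log2 scale (SE 0.11, 95% interval 0.44 to 0.91, adjusted p = 0.00044), and 1.27% of all genes passed in that comparison. Sgk1 was the member that passed there.

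No further loss of the Sgk1 response was detectable when the L change was added to the D change. GRD+L/D+L minus GRD/D was 0.0037 on the log2 scale with a 95% interval of -0.16 to 0.17 (adjusted p = 0.999). None of the other members passed in this comparison either. That is 0 of 6 by edgeR and by DESeq2, 0 at an unadjusted p under 0.05, and 0.0775% of all genes. The widest intervals were those of Sgk3, -0.72 to 0.24, and Ndrg2, -0.24 to 0.62, so that differences of this size could not be seen for these genes.

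The genes whose levels followed Sgk1 most closely were Sphk1 (sphingosine kinase), Fkbp5, Tead4 (a transcription factor of the Hippo pathway), Mt2 (a metallothionein) and Ust. Pearson's r of log2 CPM, centred within each run, was 0.972 to 0.976 over the 36 libraries among the 11781 genes whose mean count reached 50. These values describe libraries that share the Dex treatment. Sphk1 rose by 1.73 on the log2 scale in GRwt/wt of run 1 and by 1.00 in GRD/D and 0.88 in GRD+L/D+L. Mt2 rose by 3.25 in GRwt/wt of run 1 and by 0.62 and 0.44 in these mutants. In GRL/L, Sphk1 rose by 1.44 and Mt2 by 3.26, against 2.05 and 4.29 in GRwt/wt of run 2.

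**Figure D2:**
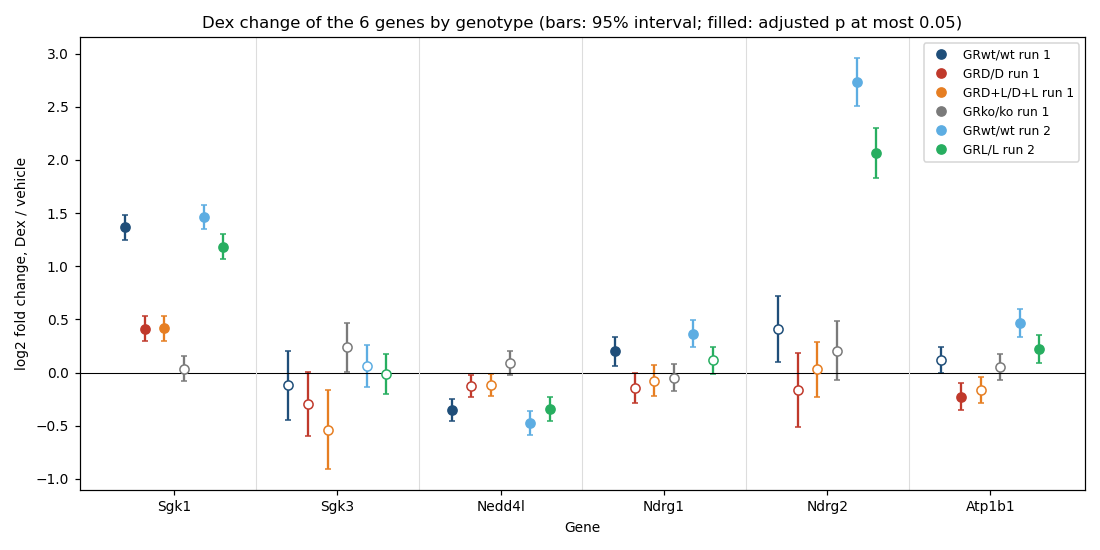
Log2 fold change of Dex over vehicle (vertical axis) for each gene (horizontal axis), with a point per genotype and run, 95% intervals as bars, and filled points where the adjusted p was at most 0.05. Sgk1 falls from 1.37 in GRwt/wt of run 1 to 0.41 and 0.42 in GRD/D and GRD+L/D+L, and Ndrg2 stands at 2.73 and 2.07 in the genotypes of run 2.

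Sgk3 (ENSMUSG00000025915, chromosome 1, 9798107 to 9900845, plus strand) differed in vehicle level between genotypes, and none of its Dex changes passed. With vehicle it was at 4.41, 4.32 and 4.87 CPM in GRwt/wt of run 1 and at 9.0, 9.75 and 12.1 CPM in GRko/ko. The knockout libraries were all above those of GRwt/wt, by 2.26-fold (log2 1.17, SE 0.14, adjusted p = 3.4e-09). In GRL/L it was at 15.4, 15.2 and 16.4 CPM, above 11.8, 11.5 and 13.0 CPM in GRwt/wt of run 2, by 1.30-fold (log2 0.37, SE 0.093, adjusted p = 0.0056). The Dex changes ranged from -0.54 in GRD+L/D+L (SE 0.18, adjusted p = 0.0935), where vehicle and Dex libraries did not overlap, to 0.24 in GRko/ko (SE 0.11, adjusted p = 0.866). Within each run, the vehicle levels of Sgk3 followed the order of the genotypes by macrophage markers, all 8 of which passed the filter. Their summed level with vehicle was 2638 to 2941 CPM in GRko/ko, 181 to 320 CPM in GRwt/wt of run 1, 667 to 734 CPM in GRD/D and 31.0 to 39.2 CPM in GRD+L/D+L. It was 820 to 976 CPM in GRL/L and 462 to 487 CPM in GRwt/wt of run 2. Between the runs this order did not hold. GRwt/wt of run 2 had fewer markers but more Sgk3 than GRD/D, which was at 5.30 to 6.21 CPM of Sgk3 with vehicle. The part of macrophages in the Sgk3 differences was not tested. In bulk RNA, fewer cells of a type and less RNA per cell cannot be told apart. The genes most like Sgk3 over the 36 libraries were Kcnab2, a potassium channel subunit gene, Irf5, an interferon regulatory factor of immune cells, and Milr1, an immunoglobulin-like receptor of mast cells (Pearson's r 0.945 to 0.948).

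**Figure D3:**
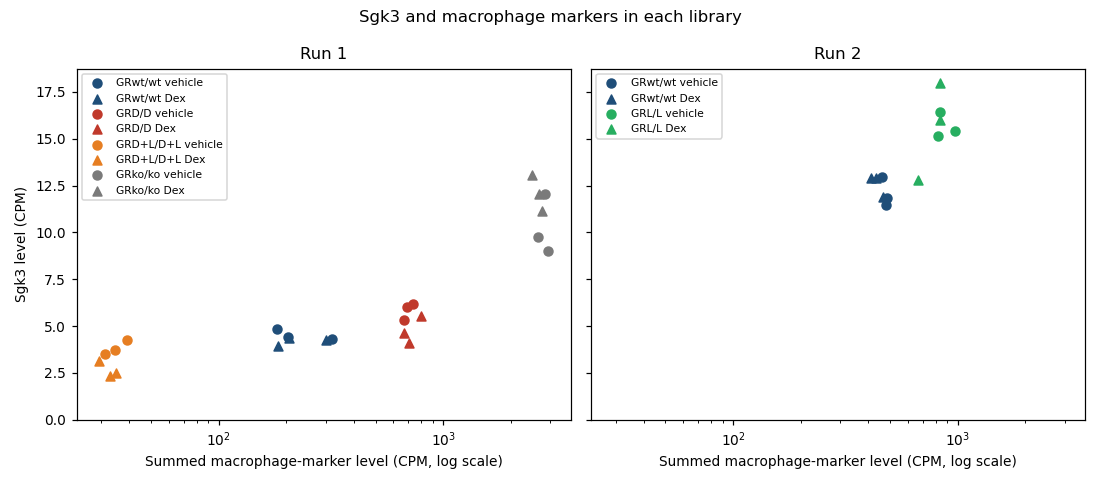
Sgk3 level in CPM (vertical axis) against the summed level of 8 macrophage markers in CPM (horizontal axis, log scale) in each library, by run, genotype (colour) and treatment (circle for vehicle, triangle for Dex). In run 1 the libraries of GRko/ko lie highest on both axes, at 9.0 to 13.1 CPM of Sgk3, and those of GRD+L/D+L lowest, at 2.33 to 4.27 CPM.

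Nedd4l (ENSMUSG00000024589, chromosome 18, 64887705 to 65217828, plus strand) moved opposite to Sgk1 under Dex, by a smaller amount. Levels in GRwt/wt of run 1 were 92.6, 91.0 and 90.6 CPM with vehicle and 74.2, 69.4 and 71.6 CPM with Dex, a log2 change of -0.35 (SE 0.051, adjusted p = 1.8e-06). In GRwt/wt of run 2 it was at 34.3, 35.2 and 37.1 CPM and at 24.6, 26.1 and 26.0 CPM, a log2 change of -0.47 (SE 0.054, adjusted p = 5.6e-09). In GRL/L it was at 32.5, 33.5 and 32.7 CPM and at 27.4, 25.04 and 25.4 CPM, a log2 change of -0.34 (SE 0.054, adjusted p = 6.1e-06). Vehicle and Dex libraries were apart in all 3 sets. They were also apart in GRD/D and GRD+L/D+L, where the log2 changes of -0.12 in both did not pass (adjusted p = 0.103 and 0.238).

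In GRko/ko Nedd4l was at 43.9, 41.6 and 38.8 CPM with vehicle and at 47.5, 44.7 and 40.3 CPM with Dex, which overlapped. The difference of the Dex change from GRwt/wt was 0.44 (SE 0.075, adjusted p = 5.1e-05) and passed. For GRD/D this difference was 0.22 (adjusted p = 0.0825), for GRD+L/D+L 0.23 (adjusted p = 0.0722) and for GRL/L 0.13 (adjusted p = 0.512), none of which passed. The level itself was lower in GRko/ko with vehicle, by -1.14 on the log2 scale (SE 0.053, adjusted p = 5.8e-20), the largest change of a member in any vehicle comparison but the 1.17 of Sgk3. The strain background of the knockout cannot be told apart from its genotype. The summed skeletal muscle markers moved with the run, as did the level of Nedd4l, at 374 to 805 CPM in run 1 and 17.8 to 31.2 CPM in run 2, and their part was not tested. The genes most like Nedd4l were Pvr, a nectin-like adhesion receptor gene, Slc5a3, a sodium-myo-inositol cotransporter gene, and Pxylp1 (Pearson's r 0.963 to 0.975). Pvr fell with Dex by 0.36 in GRwt/wt of run 1 and by 0.33 in that of run 2.

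Ndrg1 (ENSMUSG00000005125, chromosome 15, 66929318 to 66969640, minus strand) rose slightly in GRwt/wt. In run 2 it was at 26.5, 28.7 and 27.2 CPM with vehicle and at 37.2, 33.9 and 35.2 CPM with Dex, a 1.29-fold rise (log2 0.37, SE 0.062, adjusted p = 1.1e-05). In run 1 it was at 28.2, 31.5 and 28.9 CPM and at 34.5, 34.6 and 32.5 CPM, a 1.15-fold rise (log2 0.20, SE 0.068, adjusted p = 0.0443). The libraries were apart in both runs, but in run 1 the call ended when 1 of 4 libraries was left out, vehicle replicates 1 and 3 or Dex replicates 1 and 2 (adjusted p 0.131 to 0.190). In GRD/D it was at 26.4, 29.1 and 29.4 CPM and at 23.9, 25.9 and 27.1 CPM, and the log2 change of -0.15 did not pass. Its difference from GRwt/wt was -0.35 (SE 0.098, adjusted p = 0.0402), a call that ended without any of 8 of the 12 libraries. Without them the value was -0.35 to -0.30 (adjusted p 0.0699 to 0.132). The libraries were GRD/D Dex replicates 1 and 2, GRD/D vehicle replicates 2 and 3, and GRwt/wt Dex replicates 1 and 2 and vehicle replicates 1 and 3. In GRL/L the log2 change was 0.12 (adjusted p = 0.214). With vehicle Ndrg1 was higher in GRko/ko, at 40.9, 38.8 and 40.8 CPM, by 0.44 (SE 0.067, adjusted p = 7.9e-07). The macrophage markers, at 2638 to 2941 CPM in these libraries against 181 to 320 CPM in GRwt/wt, moved with this difference in GRko/ko. They also moved with the differences of Nedd4l, Ndrg2 and Atp1b1 there. In GRD+L/D+L, with markers at 31.0 to 39.2 CPM, Ndrg2 and Atp1b1 were higher with vehicle as well, by 1.02 and 0.35. In GRD/D, with markers at 667 to 734 CPM, no vehicle difference of these genes passed. The part of the markers was not tested. The genes most like Ndrg1 were Runx3, a transcription factor gene, Rassf4, and Epas1, which encodes a hypoxia-inducible factor (Pearson's r 0.868 to 0.890).

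Ndrg2 (ENSMUSG00000004558, chromosome 14, 51905271 to 51914158, minus strand), a member of the same family with low levels in vehicle, rose strongly with Dex in run 2 and little in run 1. In run 2, GRwt/wt was at 5.68, 5.14 and 5.42 CPM with vehicle and at 40.3, 35.2 and 32.8 CPM with Dex. That was a 6.66-fold rise (log2 2.73, SE 0.11, adjusted p = 3.6e-21), the largest of any member. In run 1 it was at 5.97, 4.45 and 7.27 CPM with vehicle and at 8.39, 7.78 and 7.37 CPM with Dex. The groups were apart by a narrow margin, and the log2 change of 0.41 (SE 0.15, adjusted p = 0.0737) did not pass, although it did with DESeq2 (adjusted p = 0.0488) and without vehicle replicate 3, where it was 0.59 (adjusted p = 0.0179). Vehicle levels of the 2 runs overlapped. The Dex change was larger in run 2 by 2.33 on the log2 scale (SE 0.19, adjusted p = 4.4e-11), and 7.09% of all genes passed in that comparison. Of the members, Atp1b1 passed there as well.

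Ndrg2 also rose in GRL/L, by 75.5% ± 5.23 (SE) of the log2 change in GRwt/wt. In GRL/L it was at 4.80, 5.44 and 4.09 CPM with vehicle and at 16.8, 21.4 and 22.0 CPM with Dex, a 4.19-fold rise (log2 2.07, SE 0.12, adjusted p = 1.1e-16). Each Dex library of GRL/L lay below each of GRwt/wt. The difference was -0.67 (SE 0.17, adjusted p = 0.0233), which did not pass without any of 5 libraries, GRL/L Dex replicate 1, GRL/L vehicle replicates 1 and 2, and GRwt/wt Dex replicate 4 and vehicle replicate 5 (-0.67 to -0.56, adjusted p 0.0604 to 0.138). In GRD/D, GRD+L/D+L and GRko/ko vehicle and Dex libraries of Ndrg2 overlapped, and the log2 changes were -0.16, 0.03 and 0.21 (adjusted p 0.614 to 0.968). With vehicle it was higher in GRD+L/D+L, at 11.9, 12.4 and 11.6 CPM, by 1.02 on the log2 scale (SE 0.14, adjusted p = 7.4e-07). In GRko/ko it was higher by 0.41 (adjusted p = 0.0248), a call that ended without GRwt/wt vehicle replicate 2 (0.25, adjusted p = 0.226), GRwt/wt vehicle replicate 1 (0.42, adjusted p = 0.0559) or GRko/ko vehicle replicate 1 (0.34, adjusted p = 0.109). The genes most like Ndrg2 were Aldh1a7, an aldehyde dehydrogenase gene, Pdk4, a kinase that inhibits pyruvate dehydrogenase, and Cgref1 (Pearson's r 0.881 to 0.926). Pdk4 rose by 1.85 on the log2 scale in GRwt/wt of run 1 and by 4.01 in that of run 2, and Aldh1a7 by 2.03 and 4.78. Neither passed in GRD/D, where the log2 change of Aldh1a7 was -0.20 (adjusted p = 0.770).

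Atp1b1 (ENSMUSG00000026576, chromosome 1, 164437109 to 164458355, minus strand) went up with Dex in run 2 and down in GRD/D. With vehicle it was at 21.9, 21.6 and 19.8 CPM and with Dex at 30.9, 27.9 and 28.6 CPM in GRwt/wt of run 2, a 1.38-fold rise (log2 0.47, SE 0.066, adjusted p = 4.8e-07). In GRL/L it was at 22.6, 23.3 and 23.8 CPM and at 27.4, 26.2 and 27.5 CPM, a 1.16-fold rise (log2 0.22, SE 0.065, adjusted p = 0.0138) that did not pass without Dex replicate 3 (0.20, adjusted p = 0.0576) or vehicle replicate 1 (0.20, adjusted p = 0.0637). In GRwt/wt of run 1 it was at 57.2, 57.3 and 55.2 CPM and at 64.0, 60.03 and 60.1 CPM. Those libraries were apart, but the log2 change of 0.12 (SE 0.062, adjusted p = 0.238) did not pass. The Dex change in run 2 exceeded that in run 1 by 0.35 (SE 0.090, adjusted p = 0.0118).

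In GRD/D, Atp1b1 was at 51.4, 51.4 and 50.1 CPM with vehicle and at 44.8, 44.9 and 41.0 CPM with Dex. It fell by 0.23 on the log2 scale (SE 0.064, adjusted p = 0.0160), a call that ended without Dex replicate 3 (-0.18, adjusted p = 0.110) or vehicle replicate 2 (-0.22, adjusted p = 0.0534). The difference from GRwt/wt was -0.34 (SE 0.089, adjusted p = 0.0193). It did not pass without GRD/D Dex replicate 3, GRwt/wt Dex replicate 1 or GRwt/wt vehicle replicate 3 (-0.33 to -0.30, adjusted p 0.0541 to 0.0863). In GRD+L/D+L the change was -0.16 (adjusted p = 0.143), with the libraries apart, and in GRko/ko it was 0.05 (adjusted p = 0.969). With vehicle Atp1b1 was higher in GRD+L/D+L, at 74.0, 68.3 and 74.6 CPM, by 0.35 (SE 0.062, adjusted p = 2.3e-05). In GRko/ko, at 67.2, 67.6 and 57.4 CPM, it was higher by 0.18 (adjusted p = 0.0154), which did not pass without GRko/ko replicate 1 or 2 or GRwt/wt replicate 3 (0.14 to 0.16, adjusted p 0.0642 to 0.109). The genes most like it were Alx4, Aldh1a1 and Dusp14 (Pearson's r 0.828 to 0.877).

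In the comparisons of vehicle levels, the fewest members passed in GRD/D and the most in GRko/ko, as was the case over all genes. In GRD/D 0 of 6 passed by edgeR and by DESeq2, where 9.55% of all genes passed, 5.66% higher and 3.89% lower, and 2 members, Sgk3 and Atp1b1, had an unadjusted p under 0.05. In GRD+L/D+L, Ndrg2 and Atp1b1 were higher (29.9% of all genes passed, 13.9% higher and 15.9% lower). In GRko/ko, 4 members were higher and Nedd4l was lower, against 45.7% of all genes, 24.4% higher and 21.3% lower. In GRL/L, Sgk3 was higher (11.3% of all genes, 6.88% higher and 4.47% lower). Sgk1 passed in none of these comparisons. Without vehicle replicate 2 of GRwt/wt in run 1, the library with the most Fkbp5, Sgk1 was higher with vehicle in GRD+L/D+L (log2 0.26, adjusted p = 0.00021) and in GRko/ko (log2 0.18, adjusted p = 0.0052). With it these differences were 0.15 (adjusted p = 0.0602) and 0.06 (adjusted p = 0.402).

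The surrounding pathway was described with 83 further genes in lists of kinases, ubiquitin ligases and 14-3-3 proteins, NDRG genes, sodium pump subunits, sodium channels and transporters, WNK kinases, SGK substrates and mineralocorticoid handling. Of these, 74 were tested. The 9 that were not, with at most 16 counts in any library, included Sgk2, the channel subunit genes Scnn1b and Scnn1g, the cotransporter gene Slc12a3 and the pump gene Atp1a4. In GRwt/wt, Dex raised 11 and lowered 9 of the 74 in run 1 and raised 18 and lowered 20 in run 2. That was 27% of the list beside 13.9% of all genes in run 1 and 51.4% beside 31.6% in run 2. In GRL/L 15 rose and 15 fell (40.5% beside 19.1%), in GRD/D 7 and 9 (21.6% beside 11.9%), and in GRD+L/D+L 5 and 2 (9.46% beside 5%). The lists were chosen with earlier results of these data known, and no test compared them with other genes. The lists and all genes were not matched for level. In GRko/ko edgeR and DESeq2 passed 0, with 2 at an unadjusted p under 0.05. The median log2 change of the list was -0.01 in GRwt/wt of run 1 and -0.05 in that of run 2, beside -0.0018 and -0.01 over all genes.

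Genes of the WNK list rose or fell with Dex. WNK kinases sense chloride and cell volume and act on sodium-coupled chloride cotransporters through the kinases encoded by Stk39 and Oxsr1. In each of the 5 sets with a receptor, Wnk1, Oxsr1 and Stk39 rose, and Stk39 was named after its values were seen. Over all genes, the share that rose in a single one of these sets was 3.08% (GRD+L/D+L) to 14.9% (GRwt/wt of run 2). The share that rose in all 5 was not counted. Oxsr1 rose by 0.59 on the log2 scale in GRwt/wt of run 1 and in GRD/D, by 0.41 in GRD+L/D+L, 0.72 in GRwt/wt of run 2 and 0.56 in GRL/L. Its change differed from that in GRwt/wt by -0.18 in GRD+L/D+L, which did not pass (adjusted p = 0.23). Wnk1 rose by 1.03 in GRwt/wt of run 1, 0.64 in GRD/D and 0.56 in GRD+L/D+L, and the differences of -0.39 and -0.47 did not pass (adjusted p = 0.23 and 0.10). In GRko/ko the differences of Oxsr1 (-0.55) and Wnk1 (-1.25) from GRwt/wt passed. Wnk3 fell in GRwt/wt of both runs and in GRL/L. Wnk4, with 14 to 60 counts in a library, rose in the genotypes of run 2 (0.75 and 0.76). Klhl3, which targets WNK kinases for degradation, fell in GRwt/wt of run 2 and had 6 to 58 counts in a library.

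Of the 15 tested genes of sodium channels, exchangers and cotransporters, 6 fell and 1 rose in GRwt/wt of run 1, where 6.2% of all genes fell and 7.74% rose. In run 2, 6 fell and 2 rose, where 16.7% of all genes fell and 14.9% rose. This list, too, was chosen with earlier results known, and it was neither matched to all genes for level nor tested as a set. Slc20a1 (sodium-phosphate), Slc4a7 (sodium-bicarbonate), Slc5a3 (sodium-myo-inositol), Slc8a1 (sodium-calcium exchange), Slc20a2 and Slc38a2 fell in both GRwt/wt sets and in GRL/L. Slc20a1 showed -0.42 in GRwt/wt of run 1, and its change of -0.12 in GRD+L/D+L did not pass, a difference of 0.30 (adjusted p = 0.0018). Slc5a3, which shares 159 exon bases with Mrps6 on the same strand, showed -0.63 against 0.00 in GRD+L/D+L, a difference of 0.63 (adjusted p = 0.0033). In GRD/D, Slc5a3 still fell, with a log2 change of -0.40 (adjusted p = 0.0035). Slc4a4, the gene of a sodium-bicarbonate cotransporter, went the other way. It rose by 0.88 in GRwt/wt of run 1, 1.16 in GRD/D and 1.70 in GRD+L/D+L, where the response was larger than in GRwt/wt by 0.81 (SE 0.17, adjusted p = 0.0021). In run 2 it rose by 0.43 in GRwt/wt and showed 0.35 in GRL/L (adjusted p = 0.053). Slc12a2, a sodium-potassium-chloride cotransporter gene, rose in GRwt/wt of run 2 (0.27) and in GRL/L (0.42), and its change in GRD/D differed from that in GRwt/wt of run 1 by -0.33 (adjusted p = 0.047).

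Fxyd6, which encodes a small regulator of the sodium pump, rose in GRD/D (0.47, adjusted p = 0.025), and its own change did not pass in the other genotypes. With vehicle, 6 of the 10 tested genes of the pump list were higher in GRko/ko, where 24.4% of all genes were higher. Fxyd6 was among them, by 3.01, in the genotype with the highest macrophage markers, and their part was not tested.

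Kinase and ubiquitin ligase genes moved in both directions. Deptor, an inhibitor of mTOR, rose in GRwt/wt of run 1 (0.75, SE 0.14) and run 2 (1.07, SE 0.077) and in GRL/L (0.98, SE 0.074). It showed -0.39 in GRD/D and -0.38 in GRD+L/D+L, which differed from GRwt/wt by -1.14 (adjusted p = 0.00031) and -1.13 (adjusted p = 0.0026). The loss was larger in GRD/D than in GRL/L by 1.04 (adjusted p = 0.011), so Deptor passed that comparison as Sgk1 did. Prr5l, the gene of an mTORC2 component, fell in GRD/D (-0.51) and GRL/L (-0.32). Of the NEDD4 family, Wwp2 fell and Hecw1, with as few as 3 counts in a library, rose in GRwt/wt of both runs and in GRL/L. Hecw2 rose in GRwt/wt of run 2 (0.72) and GRL/L (0.37), and Nedd4 itself fell by 0.15 in GRwt/wt of run 2. Usp2, a deubiquitinase gene, rose in GRwt/wt of both runs (0.45 and 0.52) and in GRD/D (0.55). Sfn, a 14-3-3 gene with as few as 6 counts in a library, fell in GRwt/wt of run 2 (-1.75, SE 0.61).

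Of the other SGK substrates, Foxo3, a transcription factor that AKT and SGK kinases hold in the cytoplasm, rose in GRwt/wt of run 1 (0.29) and run 2 (0.77) and in GRL/L (0.51). In GRD/D and GRD+L/D+L it showed 0.08 and 0.06 and did not pass. Foxo1 fell by 0.44 in GRwt/wt of run 2 and in GRL/L. The mineralocorticoid receptor gene Nr3c2 and Hsd11b2, whose enzyme inactivates corticosterone, were near the limit of detection, with 1 to 44 and 2 to 26 counts in a library. Nr3c2 fell by 1.05 in GRwt/wt of run 2 (SE 0.35, adjusted p = 0.020) and Hsd11b2 rose there by 1.28 (SE 0.39, adjusted p = 0.011), and Hsd11b2 also rose in GRL/L (1.11, adjusted p = 0.018). The plot of the named pathway genes gives these changes side by side.

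**Figure D4:**
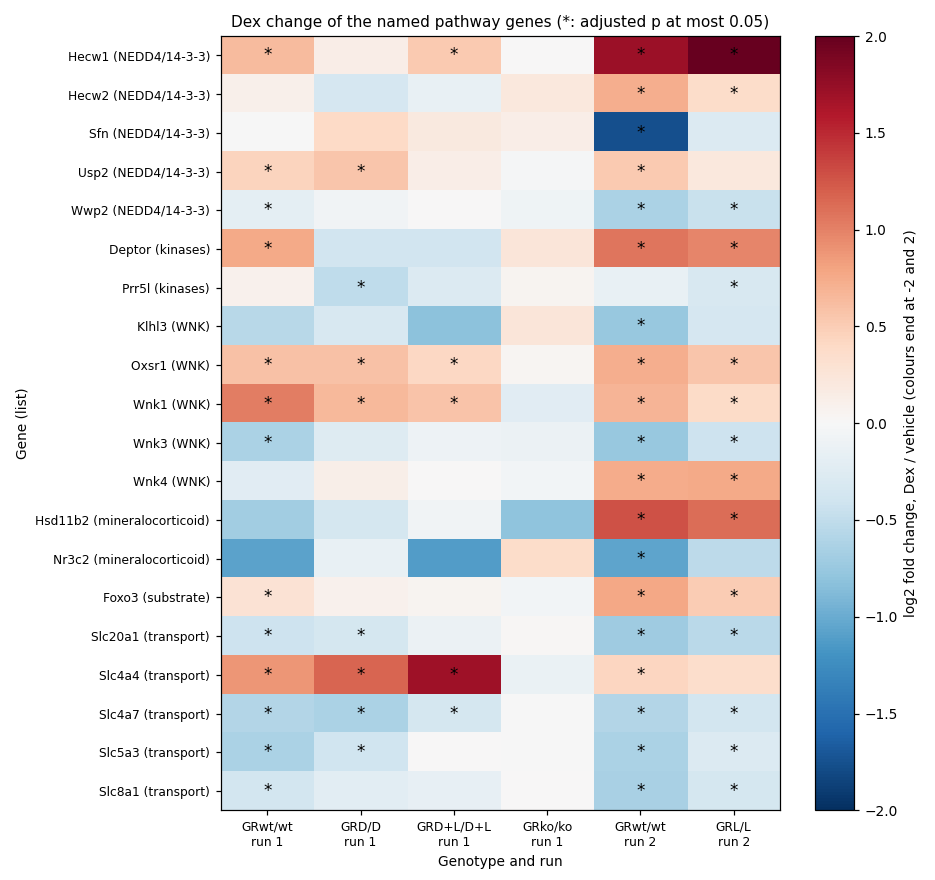
Log2 fold change of Dex over vehicle (colour, from -2 in blue to 2 in red) for 20 named pathway genes (rows, with their list in brackets) in each genotype and run (columns), with an asterisk where the adjusted p was at most 0.05. Oxsr1 and Wnk1 carry an asterisk in all 5 columns with a receptor, Slc4a4 is deepest red in GRD+L/D+L (1.70), and GRko/ko has no asterisk.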

How the data were processed

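RNA-seq was done on MEF cultures of 12 groups of genotype, treatment and run, with 3 libraries in each. The deposited table holds raw read counts per Ensembl gene, made by the authors with HISAT2 2.1.0 on mm10 and featureCounts 2.0.0 after FastQC, per the submitters' processing notes, which also name DESeq2. The annotation and the strand setting are not given in the sources used here. All 36 columns were mapped to samples by their labels.

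Gene symbols, positions and exon lengths came from GENCODE M21 (GRCm38), with 55141 of 55487 identifiers matched. Genes with low counts were removed with filterByExpr over the 12 groups, which left 15489 genes with 99.9% of all counts. Counts were scaled by TMM and fitted with edgeR 4.0.16 (limma 3.58.1, R 4.3.3) as a mean per group over all 36 libraries, which share an estimate of the spread (biological coefficient of variation 0.0513). Quasi-likelihood F tests were two-sided, with Benjamini-Hochberg adjustment over all genes tested in each of 17 comparisons. The SE is the log2 change divided by the square root of F, and intervals are at 95%. CPM values are TMM-scaled, and values per kb are divided by the summed exon length. The script was tested on simulated counts. The main fit did not pair the vehicle and Dex libraries of a culture. The tests set each change against the spread between the libraries of a group, which came from cultures of different mice. That spread was estimated over all 12 groups. How small a change could be seen depended on it, on the number of libraries per group and on the counts of the gene.

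The members and the pathway lists were chosen with earlier results of these data known, and no list is tested as a set. Named pathway genes were those of 8 lists that passed with an absolute log2 value of at least 0.5 in a Dex change or in a difference from GRwt/wt of the same run, which gave 21, of which 20 are described. Some results are not reported here. Further genes of the lists (Stk39, Slc12a2, Slc20a2, Slc38a2, Fxyd6, Nedd4 and Foxo1) were named after their values were seen. Likeness is Pearson's r of log2 CPM (prior count 2) after subtraction of the mean of each run, with the 3 most alike genes named (5 for Sgk1). Promoters are RefSeq windows.

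Alternatives were size factors by relative log expression, no filter, a minimum of 10 counts in every library, the study's formula (run plus condition, with GRwt/wt pooled over the runs), a separate fit for each run, the replicate number as a block, DESeq2 1.42.0, and each library left out in turn. Whether replicate numbers pair the libraries was checked from the correlation of their deviations from the group means.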

Additional observations from a re-analysis of the deposited data

Results flagged for a closer look

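The Dex change differed between genotypes of a run, or between the runs, for 9 values of the members, by edgeR's quasi-likelihood test of the difference itself. For Sgk1 the differences from GRwt/wt of run 1 were -0.95 in GRD/D, -0.95 in GRD+L/D+L and -1.33 in GRko/ko. These 3 values share the same GRwt/wt libraries. For Nedd4l the difference was 0.44 in GRko/ko. For Ndrg1 it was -0.35 and for Atp1b1 -0.34 in GRD/D, and both calls ended when single libraries were left out. For Ndrg2 the difference of GRL/L from GRwt/wt of run 2 was -0.67, a call that also ended when single libraries were left out. Between the GRwt/wt sets of the 2 runs the Dex change of Ndrg2 differed by 2.33 and that of Atp1b1 by 0.35, while the difference of Sgk1 was 0.10 and did not pass. Run and sequencing depth change together between these sets and cannot be told apart. Whether the cultures changed as well is not stated in the sources used here. The summed skeletal muscle markers, at 374 to 805 CPM in run 1 and 17.8 to 31.2 CPM in run 2, moved with the run, and their part in the Ndrg2 and Atp1b1 differences was not tested.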

How the results depend on the processing

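Of 1608 values of the members under the alternatives, 1494 kept their direction and their side of the threshold, 36 no longer passed, 31 newly passed and 47 changed sign. The Sgk1 calls of the Dex changes, of the 3 differences within run 1 and of the loss in GRD/D against GRL/L passed under every alternative run. The cause of the changes below was not tested, except that the study's formula pools GRwt/wt over runs whose Dex changes differ. With that formula the members that passed went from 3 to 5 in GRwt/wt of run 1, from 2 to 1 in GRD/D, and in the differences from 3 to 5 (GRD/D), from 1 to 5 (GRD+L/D+L), from 2 to 4 (GRko/ko), from 1 to 0 (GRL/L) and from 1 to 3 (loss), and with vehicle from 0 to 1 (GRD/D) and from 2 to 4 (GRD+L/D+L). Pathway genes went from 20 to 37 in GRwt/wt of run 1, from 2 to 6, 4 to 12, 10 to 22, 1 to 0 and 2 to 10 in the same order of differences, and from 5 to 10 in GRD/D with vehicle. Under it the Sgk3 change in GRwt/wt of run 1 became 0.0089, and Ndrg2 became 0.12 in GRL/L minus GRwt/wt, 2.23 in the loss and 0.77 in GRD/D with vehicle. In the GRL/L difference, 2 members and 2 pathway genes passed with no filter, with the minimum of 10 counts and with DESeq2, and 0 and 0 with a fit per run. With no filter 1 pathway gene passed in GRko/ko and 2 in GRD+L/D+L minus GRD/D. Relative log expression left 1 pathway gene in the GRD/D difference and 1 in the loss, the fit per run 1 in the GRD/D difference, and the minimum of 10 counts 8 in GRL/L with vehicle.

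Values near 0 changed sign. With relative log expression, the minimum of 10 counts, the fit per run and DESeq2, in that order, Sgk1 in GRD+L/D+L minus GRD/D became -0.0035, -0.0044, -0.0037 and -0.0035, Nedd4l there -0.00099, -0.0019, -0.0012 and -0.00058, and Sgk1 in GRD/D with vehicle -0.014, -0.0074, -0.012 and -0.014.

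The sources do not say whether equal replicate numbers mark the same culture, and deviations within groups of 3 libraries cannot decide it. Of 18 pairs, 3 had a correlation over 0.1, in a range from -0.16 to 0.24. Of 18 vehicle libraries, 7 were closest to their own number. With the replicate block, 2 members passed in the GRD+L/D+L difference and 2 in the GRL/L difference, and 0 pathway genes in the latter. The Ndrg1 values did not pass with it in GRwt/wt of run 1 (0.20, adjusted p = 0.0789) or in the GRD/D difference (-0.34, adjusted p = 0.0897), while those of Atp1b1 in the GRD+L/D+L difference (-0.28, adjusted p = 0.0241) and Sgk1 in the GRL/L difference (-0.28, adjusted p = 0.0443) did.

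With single libraries left out, the members that passed were 1 to 2 in GRD/D, and in the differences 1 to 3 (GRD/D), 1 to 2 (GRD+L/D+L) and 0 to 2 (GRL/L), and 3 to 5 in GRko/ko with vehicle. Pathway genes were 10 to 19 in GRD/D, 1 to 3 and 0 to 2 in the differences of GRD/D and GRL/L, 1 to 2 in the loss, and with vehicle 5 to 9 (GRD/D), 13 to 18 (GRD+L/D+L, 21 with all libraries) and 6 to 10 (GRL/L, 14 with all). Values whose range crossed 0 were those of Ndrg1 (-0.13 to 0.0034) and Ndrg2 (-0.023 to 0.074) in GRD+L/D+L, Sgk3 in GRL/L (-0.12 to 0.11) and Atp1b1 in GRko/ko (-0.024 to 0.12). Among differences they were Nedd4l (-0.029 to 0.030) and Sgk1 (-0.016 to 0.027) in GRD+L/D+L minus GRD/D, Sgk3 in GRL/L (-0.18 to 0.054), Atp1b1 in GRko/ko (-0.14 to 0.0047), Sgk1 between the runs (-0.020 to 0.16), and Ndrg2 (-0.27 to 0.077) and Sgk3 (-0.0013 to 0.23) in the loss. With vehicle they were Ndrg2 (-0.34 to 0.0028) and Sgk1 (-0.060 to 0.12) in GRD/D and Sgk1 in GRL/L (-0.061 to 0.026). The fit per run gives no run difference or loss, the block no vehicle comparison and the study's formula no run difference.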
